A study of Mus musculus with 6 samples.

Results

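Genes of the connective tissue of the pancreas were examined in newborn mice that lack miR-216a: collagens, other extracellular matrix proteins, the receptors and identity factors of fibroblasts, and the contractile proteins of smooth muscle and pericytes. The set is a list of 45 named genes, split by what their products do into 13 collagens, 21 other matrix genes, 5 receptor and identity genes and 6 contractile and mural genes. It was set against all 35527 genes with an entry in the read tables. All 45 were expressed well enough to be tested, among 15805 genes tested in all. The tissue was whole pancreas from 1-day-old C57BL/6 mice. KO mice, which carry the miR216a-/- genotype, gave 3 libraries, and wild-type (WT) mice gave 3, each library from its own donor mouse. No treatment is named for either group, and no source used here says how the allele was made. Bulk mRNA was sequenced with a stranded kit, and values below follow the order of the replicate numbers, which name a library and pair nothing.

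Matrix in the developing pancreas is laid down mainly by mesenchymal cells around the epithelium, which also supply it with growth signals. Fibrillar collagens of types I, III and V form the load-bearing fibres, type IV collagen forms the basement membrane sheet, and type VI collagen forms beaded filaments between the cells. Collagen chains are hydroxylated and folded in the endoplasmic reticulum, cross-linked outside the cell by lysyl oxidases, and removed by metalloproteinases that TIMP proteins inhibit. The receptor PDGFRA marks fibroblasts and PDGFRB marks pericytes and other mural cells, and both bind platelet-derived growth factors. A microRNA lowers the level or translation of a transcript mainly through pairing of its seed, bases 2 to 8, with the 3' UTR.

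The missing microRNA has a 5p and a 3p arm, and their mature sequences (RefSeq, GRCm38.p6) are shown because their seeds, in capitals, define which transcripts could pair with them. The 5p arm lies at chr11:28757018-28757039 and the 3p arm at chr11:28757058-28757079, both on the plus strand.
miR-216a-5p: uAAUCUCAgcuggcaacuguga
miR-216a-3p: cACAGUGGucucugggauuaug

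The longest annotated 3' UTR of each member was searched, on the transcript strand, for a match to either seed. A match was counted if it held the complement of bases 2 to 8 (TGAGATT for 5p, CCACTGT for 3p), or the complement of bases 2 to 7 followed by A (GAGATTA for 5p, CACTGTA for 3p), or both at once. Of the 45 members, 4 held a 5p match (8.89%), against 18.1% of the 15126 tested genes with a 3' UTR to search. A 3p match stood in 10 of the 45 (22.2%), against 27.6% of those genes. The members' 3' UTRs were shorter, with a median of 980 bases against 1371. The 5p matches are printed in 30 bases of their surroundings, with the matching letters in capitals, and after them the 3p matches in Pdgfra, which held matches to both arms.
Pdgfra, 5p, chr5:75197421-75197427, plus strand: gtacccacctcTGAGATTcaatgggaatac
Timp3, 5p, chr10:86348744-86348750, plus strand: gccatggcaacTGAGATTctaagctctctt
Col5a1, 5p, chr2:28038133-28038139, plus strand: tctccacattcTGAGATTtttgccaaggac
Col12a1, 5p, chr9:79600103-79600110, minus strand: atttatggttgTGAGATTAagggtggagtg
Pdgfra, 3p, chr5:75197057-75197063, plus strand: attactgcaatCACTGTAttgcttctagca
Pdgfra, 3p, chr5:75197536-75197542, plus strand: ctctcagagatCCACTGTctctgtaccccc

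The Pdgfra matches lie in its annotated 3' UTR of 3115 bases (GRCm38). The match in Col12a1 was the longest form, and the other 5p matches covered bases 2 to 8 alone. Members with a 5p match had a median log2 fold change (KO over WT) of 0.09, and members without one -0.21. All tested genes with and without one had 0.04 and 0.0. The 0.09 came from 4 genes that went both ways: Pdgfra 0.39, Timp3 0.28, Col5a1 -0.11 and Col12a1 -0.13. For a 3p match the members' medians were -0.01 with and -0.21 without, and those of all tested genes 0.03 and 0.0. The 10 members with a 3p match also went both ways. Pdgfra stood at 0.39, Pdgfrb at 0.23, Cspg4 at 0.14, Fbln2 at 0.10 and Col4a1 at 0.05. Col5a2 stood at -0.07, Loxl1 at -0.16, Fbn1 at -0.23, Tagln at -0.23 and Col14a1 at -0.46. A match in letters is a description of the sequence. Pairing in the tissue was not measured.

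Depth was between 20565387 and 23028718 estimated reads per library. The biological coefficient of variation, the spread between mice after counting noise, was 18.4%. Across all 15805 genes, edgeR's quasi-likelihood test called 0 higher and 0 lower in KO (0.0% each) at a Benjamini-Hochberg adjusted p under 0.05. At an unadjusted p under 0.05 there were 889 genes higher and 1107 lower. DESeq2 called 132 higher and 304 lower, and limma-voom 1 in each direction (0.00633% each). The libraries differed in other ways too: in CPM, reads scaled to library size with TMM factors, the Y-linked gene Ddx3y stood at 0.141 in KO 1 and at 61.8 to 102.0 in the other libraries, and the liver gene Alb at 219 in WT 1 and at 6.41 to 15.1 elsewhere. No source used here names the sex, the litter or the batch of a mouse.

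The members covered a wide range of levels, as the plot of levels shows in TPM, which scales reads by transcript length and library total. Col3a1, the chain of type III collagen, had the highest mean, 1277 TPM over the 6 libraries, with a range of 744 to 1683. Sparc, which encodes a collagen-binding glycoprotein, followed at 671 TPM and Vim, the intermediate filament of mesenchymal cells, at 525 TPM. The chains of type I collagen stood at 469 TPM for Col1a2 and 435 TPM for Col1a1, and their ranges overlapped almost wholly. At the other end were Nkx3-2, a transcription factor of gut and spleen mesenchyme, at 1.6 TPM and Tnc, the adhesion-modulating glycoprotein tenascin-C, at 2.63 TPM. Together the 45 genes took 2.07, 1.32 and 2.07% of the reads in the KO libraries, against 2.01, 2.57 and 1.88% in the WT libraries. These shares overlapped between the groups, with KO 2 lowest and WT 2 highest.

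**Figure D1:**
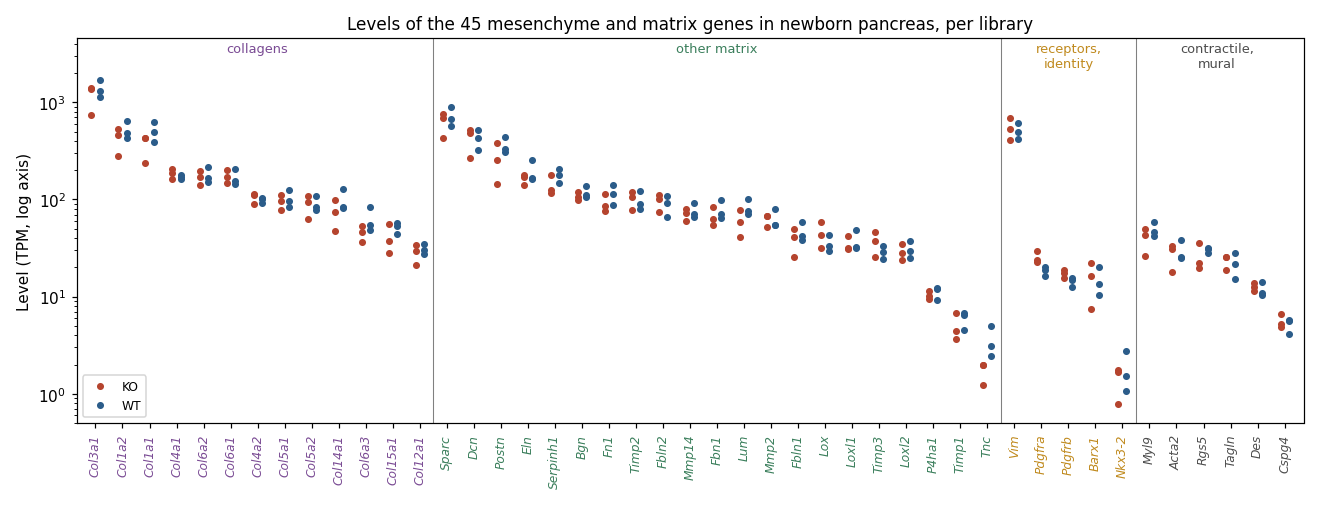
Level of each of the 45 genes in each library, in TPM on a log axis, grouped by function and sorted within each group by mean level; red points are KO and blue points WT libraries. Col3a1 has the highest mean (1277 TPM) and Nkx3-2 the lowest (1.6 TPM).

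In KO pancreas most of the matrix genes among the 45 had a lower mean, and both PDGF receptors a higher one. However, none of the 45 genes passed the test, and the collagen median rested largely on KO 2. Outside the 45, 12 of 15 basement membrane genes and 14 of 23 other tested collagens had a higher mean in KO. The summed CPM of the other collagens was lower in mean in KO, 656 against 716 in WT. A lower mean was found for 19 of 27 collagen folding and processing genes. By edgeR's quasi-likelihood test 0 members were called in either direction. The smallest adjusted p was 0.206, for Tnc, where the smallest over all tested genes was 0.205. A lower mean in KO was found for 32 members (71.1%), against 48.8% of all tested genes, and the members' median log2 fold change was -0.16, against 0.01 over all genes. By library, relative to the WT mean, the members' median was 0.0, -0.37 and -0.06 in KO, against -0.07, 0.15 and -0.06 in WT, so KO 1 and KO 3 lay within the WT range. Without KO 2 the collagen median was -0.02, and without KO 3 the median of the receptor and identity genes was -0.09. At an unadjusted p under 0.05, 7 members were lower (15.6%) and 2 higher (4.44%), where all genes gave 7.0% lower and 5.62% higher. The 7 were Col1a1, Col6a3, Lum, Fn1, Tnc, Serpinh1 and Myl9, and the 2 were Pdgfra and Pdgfrb. The count of 7 changed with single libraries: it was 3 without KO 2, 1 without WT 2 and 13 without KO 1. The count of 2 became 4 without KO 2 and 1 without any of KO 3, WT 2 or WT 3. The share of all genes at an unadjusted p under 0.05 was not counted in these fits. Over all genes, the edgeR fit without KO 1 called 275 lower and 87 higher by adjusted p, so more than the members changed.

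All 3 KO libraries lay below all 3 WT libraries in CPM for 6 members (13.3%), namely Col1a1, Col6a3, Lum, Bgn, Tnc and Myl9, where 10.3% of all tested genes did so. All 3 KO libraries lay above all 3 WT libraries for Pdgfra and Pdgfrb (4.44% of members), where 9.07% of all tested genes did so. The deposited TPM values are scaled by transcript length and library total, without TMM factors. On these values Tnc was the 1 member left below, and both receptors stayed above. The matching shares of all tested genes were not counted on TPM.

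DESeq2 called 2 members at an adjusted p under 0.05, and limma-voom 0. Tnc was lower in KO, with a log2 fold change of -1.04 ± 0.25 (SE) and an adjusted p of 0.00362. Pdgfra was higher, at 0.39 ± 0.12 and 0.0405. The share of all tested genes that DESeq2 called was 1.92% lower and 0.835% higher.

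**Figure D2:**
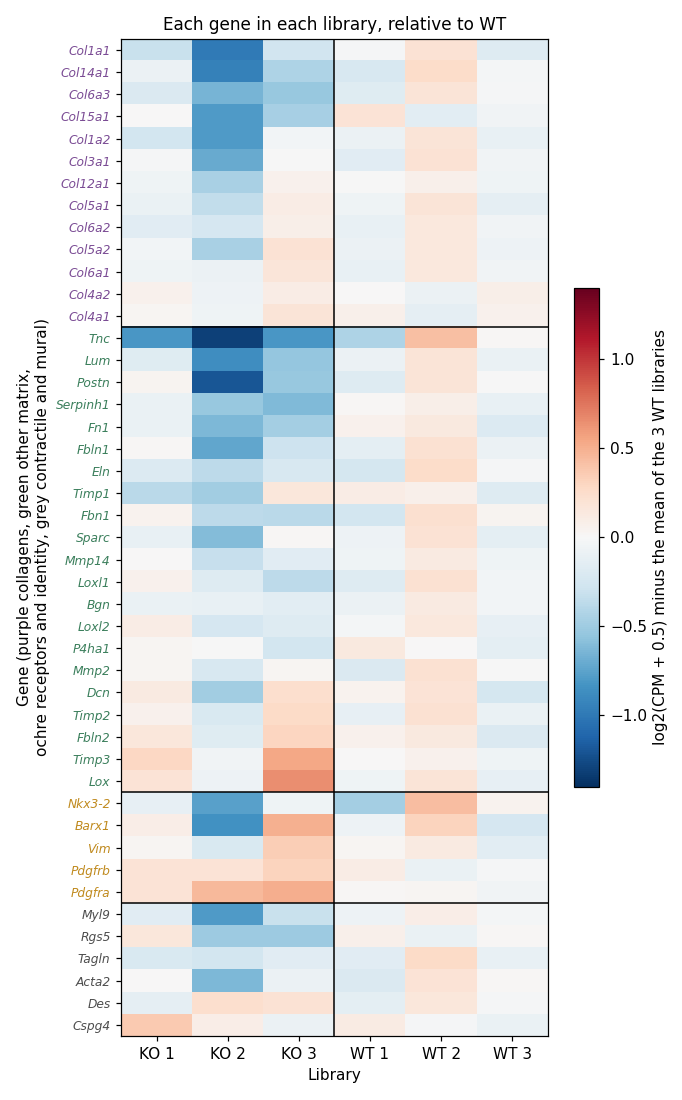
Each of the 45 genes (rows, grouped by function and sorted by fold change within each group) in each library (columns), as log2(CPM + 0.5) minus the mean of the 3 WT libraries, in blue below and red above that mean. KO 2 is the lowest of the 6 libraries for 30 genes, WT 2 is the highest for 26, and Pdgfra is above the WT mean in the 3 KO libraries.

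Among the collagens, 10 of 13 had a lower mean in KO, with a median log2 fold change of -0.13, and 0 were called. The 5 chains of the fibrillar types I, III and V among the members all had a lower mean, with a median of -0.22. Col1a1 (chr11:94936224-94953042, plus strand) encodes the chain present in 2 copies in the type I trimer. It had 1797, 1123 and 1849 CPM in KO, against 2201, 2569 and 1971 CPM in WT. The groups did not overlap, and KO 2 was the lowest library by far. The log2 fold change was -0.50 ± 0.20, with an edgeR adjusted p of 0.37. Its partner Col1a2 averaged 1698 ± 431 CPM in KO pancreas and 2145 ± 241 CPM in WT pancreas (SD, n = 3 each), and Col3a1 had 4708, 2935 and 4755 CPM in KO, against 4294, 5486 and 4636 CPM in WT. For Col3a1, KO 1 and KO 3 lay inside the WT range, and the log2 fold change was -0.22 ± 0.21 (edgeR adjusted p = 0.719). Without KO 2 the Col3a1 value was -0.02 and the collagen median -0.02.

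The chains of type VI collagen, which assemble together, differed from each other in their values. Col6a3 (chr1:90765923-90843971, minus strand) had 280, 206 and 224 CPM in KO, against 288, 366 and 319 CPM in WT. The groups did not overlap, although KO 1 lay close to WT 1. The log2 fold change was -0.45 ± 0.14 (edgeR adjusted p = 0.261), and it stayed between -0.59 and -0.36 when any 1 library was left out. Col6a1 and Col6a2 averaged 562 ± 56.1 and 517 ± 60.1 CPM in KO, and 559 ± 53.5 and 555 ± 51.5 CPM in WT.

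A ratio of 2 genes within a library cancels a common change in level, so 7 ratios were formed from the TPM values, 5 of them of collagen chains that assemble together, a choice made after the values had been seen. The ratio of Col6a3 to Col6a1 was 0.312, 0.246 and 0.231 in KO, against 0.354, 0.408 and 0.337 in WT. The KO ratios all lay below the WT ratios, with an exact permutation p of 0.1, two-sided, the smallest that 3 against 3 libraries allow, and 0.233 after adjustment over the 7 ratios. The ratio of Col6a2 to Col6a1 was 0.978 ± 0.0202 in KO and 1.05 ± 0.00765 in WT, also without overlap (exact permutation p = 0.1, adjusted 0.233). Col1a1 over Col1a2 was 0.867 ± 0.0558 in KO and 0.975 ± 0.0556 in WT, with overlap (exact permutation p = 0.2). For the type IV chains, Col4a1 over Col4a2 was 1.75 ± 0.0619 in KO and 1.72 ± 0.0553 in WT (exact permutation p = 0.5). Col5a1 over Col5a2 was 1.1 ± 0.125 in KO and 1.13 ± 0.0402 in WT, with overlap (exact permutation p = 0.7). Col1a1 over Pdgfra was 14.5 ± 4.43 in KO and 27.0 ± 3.55 in WT, without overlap (exact permutation p = 0.1, adjusted 0.233).

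Col14a1, a fibril-associated collagen, had 388, 214 and 305 CPM in KO, against 352, 493 and 403 CPM in WT. KO 1 lay inside the WT range, and the log2 fold change was -0.46 ± 0.22 (edgeR adjusted p = 0.435). Col15a1, a collagen of basement membrane zones, averaged 144 ± 40.4 CPM in KO pancreas and 189 ± 22.7 CPM in WT pancreas. The basement membrane chains Col4a1 and Col4a2, whose genes stand head to head, had log2 fold changes of 0.05 ± 0.11 and 0.03 ± 0.10. Col12a1, which holds the longest 5p match, averaged 157 ± 27.5 CPM in KO pancreas and 172 ± 7.86 CPM in WT pancreas, and Col5a1 587 ± 90.8 and 632 ± 73.2 CPM.

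Of the 21 other matrix genes, 17 had a lower mean in KO, the median log2 fold change was -0.16, and 0 were called. Tnc (chr4:63959785-64047015, minus strand) had the lowest CPM ratio of the 45. It had 11.2, 7.83 and 11.2 CPM in KO, against 14.7, 26.9 and 20.3 CPM in WT, so its mean in KO was 0.487 of that in WT by the fit. All KO libraries lay below all WT libraries, and the WT libraries spread widely. The log2 fold change was -1.04 ± 0.24 (edgeR adjusted p = 0.206), and between -1.23 and -0.80 when any 1 library was left out.

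Among the small leucine-rich proteoglycans, which bind collagen fibrils, Lum had 132, 80.9 and 102 CPM in KO, against 140, 168 and 139 CPM in WT. The groups did not overlap, with KO 1 near the WT libraries, and the log2 fold change was -0.51 ± 0.17 (edgeR adjusted p = 0.291). Bgn had 198, 196 and 190 CPM in KO, against 199, 231 and 205 CPM in WT. Here the groups were apart by about 1 CPM between KO 1 and WT 1, and the log2 fold change was -0.12 ± 0.09 (edgeR adjusted p = 0.621). Dcn averaged 526 ± 130 CPM in KO pancreas and 534 ± 79.8 CPM in WT pancreas, with a log2 fold change of -0.02 ± 0.20.

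Among the matrix glycoproteins, Fn1, or fibronectin, had 520, 358 and 398 CPM in KO, against 578, 611 and 486 CPM in WT. KO 1 lay above WT 3, and the log2 fold change was -0.39 ± 0.16 (edgeR adjusted p = 0.355). Sparc had 1117, 792 and 1219 CPM in KO, against 1142, 1389 and 1098 CPM in WT, with KO 2 alone below the WT range. Its log2 fold change was -0.21 ± 0.18 (edgeR adjusted p = 0.669), and -0.05 without KO 2. Postn, or periostin, averaged 592 ± 244 CPM in KO pancreas and 831 ± 104 CPM in WT pancreas, and its KO value was spread most widely among the glycoproteins, from 359 CPM in KO 2 to 846 CPM in KO 1. Of the elastic fibre genes, Eln, Fbn1 and Fbln1 had log2 fold changes of -0.27 ± 0.14, -0.23 ± 0.16 and -0.31 ± 0.19, and Fbln2 0.10 ± 0.14.

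Among the genes that fold, cross-link and degrade matrix, Serpinh1 (chr7:99345376-99353239, minus strand), the collagen chaperone HSP47, had 280, 207 and 194 CPM in KO, against 303, 316 and 278 CPM in WT. KO 1 lay just above WT 3 and the other KO libraries below all WT libraries. The log2 fold change was -0.40 ± 0.14 (edgeR adjusted p = 0.316), and without KO 1 it was -0.58 ± 0.11 with an adjusted p of 0.0423, in a fit that called 275 genes lower and 87 higher. P4ha1, a subunit of collagen prolyl hydroxylase, stood at 24.5 ± 2.56 CPM in KO pancreas and 25.9 ± 2.42 CPM in WT pancreas. The lysyl oxidases had log2 fold changes of 0.28 ± 0.18 (Lox), -0.16 ± 0.14 (Loxl1) and -0.10 ± 0.12 (Loxl2). The proteinases Mmp2 and Mmp14 had -0.07 ± 0.13 and -0.16 ± 0.11. Timp3, a metalloproteinase inhibitor with a 5p match, averaged 123 ± 24.7 CPM in KO pancreas and 101 ± 4.26 CPM in WT pancreas, where KO 2 lay inside the WT range, and its log2 fold change was 0.28 ± 0.14 (edgeR adjusted p = 0.471). Timp2 and Timp1 had 0.05 ± 0.14 and -0.24 ± 0.26.

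**Figure D3:**
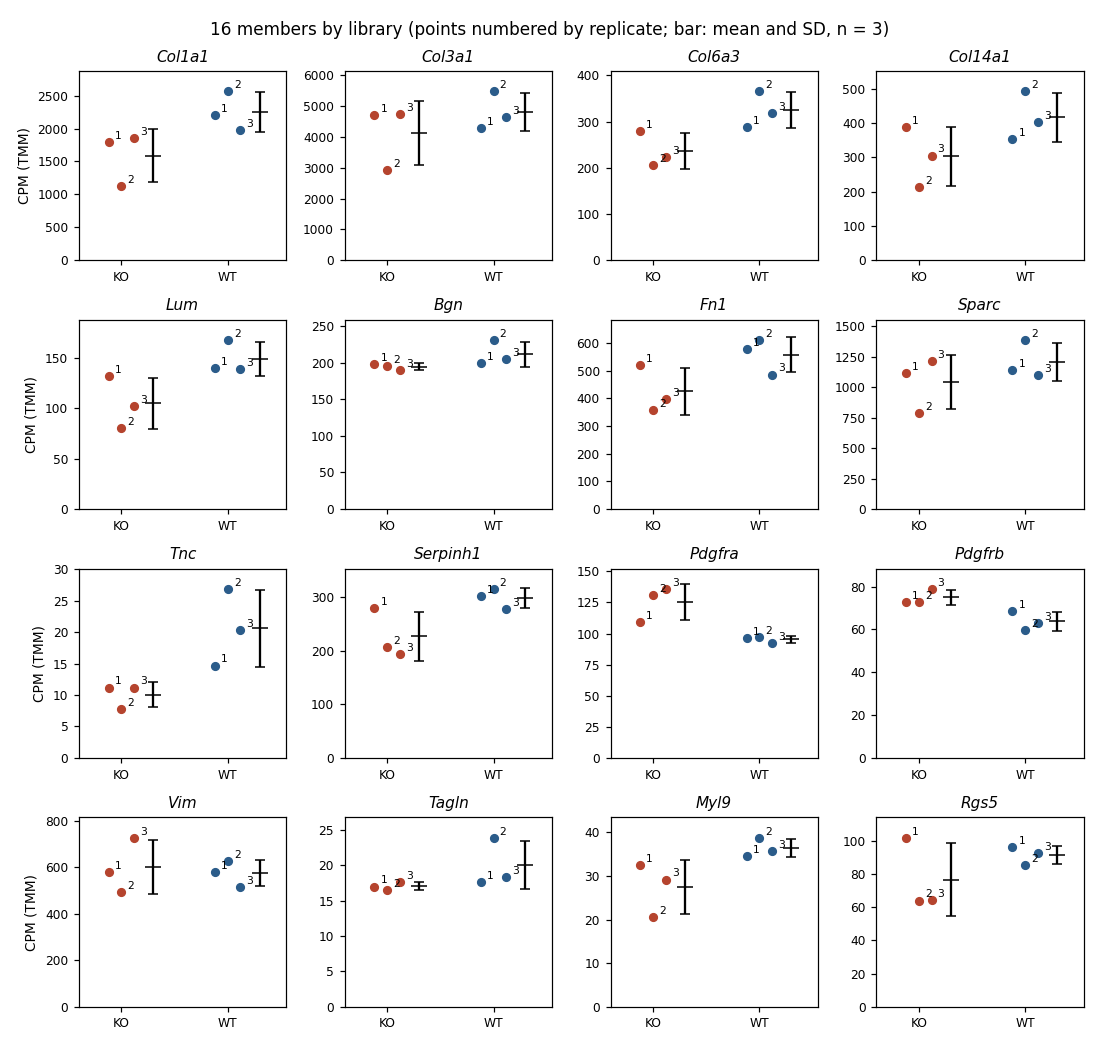
TMM-normalized CPM of 16 members in each library, with axes from 0; red points are KO and blue points WT libraries, numbered by replicate, and the bars give the mean and SD (n = 3). Tnc in KO (7.83 to 11.2 CPM) lies below WT (14.7 to 26.9 CPM), and Pdgfra in KO (109 to 136 CPM) above WT (92.3 to 97.2 CPM).

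The receptor and identity genes had a median log2 fold change of 0.07, with 4 of 5 higher in mean in KO and 0 called. Of these 4, Barx1 stood at 0.0 and Vim at 0.07, and the others were Pdgfra and Pdgfrb. Pdgfra (chr5:75152292-75198215, plus strand), the receptor whose 3' UTR matches are printed above, had 109, 131 and 136 CPM in KO, against 96.5, 97.2 and 92.3 CPM in WT. All KO libraries lay above all WT libraries, and the WT libraries differed little from each other. The log2 fold change was 0.39 ± 0.10 (edgeR adjusted p = 0.227). Unlike the 5 fibrillar chains among the members, Pdgfra was not lowest in KO 2. Without any 1 library its log2 fold change stayed between 0.33 and 0.49. Its edgeR adjusted p was 0.0415 without KO 1 and above 0.05 without any other.

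Pdgfrb had 73.0, 73.0 and 79.0 CPM in KO, against 68.7, 59.8 and 62.9 CPM in WT. These groups did not overlap either, and the log2 fold change was 0.23 ± 0.09 (edgeR adjusted p = 0.336). The ratio of Pdgfra to Pdgfrb in TPM was 1.46 ± 0.132 in KO and 1.29 ± 0.0795 in WT, with overlap (exact permutation p = 0.2).

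Vim had 581, 495 and 727 CPM in KO, against 581, 625 and 515 CPM in WT, so the groups overlapped across most of their range (log2 fold change 0.07 ± 0.15, edgeR adjusted p = 0.90). Its sign turned to -0.09 without KO 3. The transcription factors Barx1 and Nkx3-2, both of splanchnic mesenchyme, averaged 12.3 ± 5.46 and 1.33 ± 0.45 CPM in KO, and 12.3 ± 2.58 and 1.79 ± 0.698 CPM in WT. In a bulk sample, fewer cells of a type and less RNA per cell cannot be told apart.

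Of the contractile and mural genes, 4 of 6 had a lower mean in KO, the median log2 fold change was -0.22, and 0 were called. The median was -0.04 with an offset for transcript length and on the authors' scaled table. Myl9 (chr2:156775420-156781658, plus strand), the regulatory light chain of smooth muscle myosin, had 32.6, 20.7 and 29.2 CPM in KO, against 34.7, 38.8 and 35.7 CPM in WT. The groups did not overlap, with KO 2 lowest, and the log2 fold change was -0.40 ± 0.16 (edgeR adjusted p = 0.361). Tagln, an actin-binding protein of smooth muscle, had 17, 16.5 and 17.7 CPM in KO, against 17.7, 23.9 and 18.4 CPM in WT, where WT 2 stood above the rest. Its log2 fold change was -0.23 ± 0.14 (edgeR adjusted p = 0.548), and its sign turned to 0.08 with the length offset and 0.10 on the authors' scaled table.

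Rgs5, a regulator of G protein signalling found in pericytes, had 102, 64.1 and 64.2 CPM in KO, against 96.2, 85.4 and 92.7 CPM in WT. KO 1 was the highest library, and the other KO libraries lay below all WT libraries (log2 fold change -0.25 ± 0.18, edgeR adjusted p = 0.625). Acta2, or smooth muscle actin, averaged 33.0 ± 7.41 CPM in KO pancreas and 38.5 ± 5.24 CPM in WT pancreas. The pericyte proteoglycan gene Cspg4 and the muscle filament gene Des had log2 fold changes of 0.14 ± 0.13 and 0.11 ± 0.13.

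Library by library, KO 2 was the lowest of the 6 libraries for 30 of the 45 members (66.7%), where it was lowest for 19.4% of all tested genes, and WT 2 was the highest for 26 (57.8%), against 11.9%. Both held for 22 of the 45. Relative to the WT mean, the collagen median was -0.06, -0.45 and 0.06 in the KO libraries, against -0.08, 0.15 and -0.05 in the WT libraries. For the 5 fibrillar chains among the members it was -0.09, -0.70 and -0.01 in KO, against -0.08, 0.19 and -0.10 in WT. KO 1 and KO 3 thus lay within the WT range. The other matrix genes gave 0.02, -0.36 and -0.18 in KO, against -0.08, 0.18 and -0.09 in WT, so KO 3 was low for these as well. The receptor and identity genes gave 0.10, -0.21 and 0.35 in KO, against 0.02, 0.13 and -0.05 in WT. The median over all tested genes stayed between 0.0 and 0.01 in each library.

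**Figure D4:**
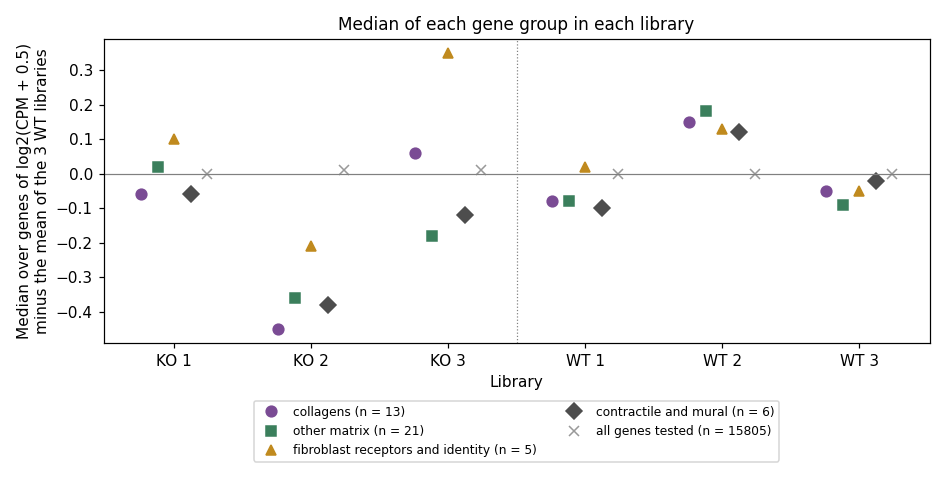
Median of each gene group in each library, as log2(CPM + 0.5) minus the mean of the 3 WT libraries; symbols mark the 4 groups and crosses all 15805 tested genes. The collagens, other matrix and contractile genes are lowest in KO 2 (-0.45, -0.36 and -0.38) and highest in WT 2 (0.15, 0.18 and 0.12), except that the receptor and identity genes peak in KO 3 (0.35).

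Leaving out KO 2 gave medians of -0.12 for the other matrix genes, -0.09 for the contractile genes and 0.25 for the receptor and identity genes. Leaving out WT 2 gave -0.09, -0.10 and 0.18 for the same groups, and -0.10 for the collagens.

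Markers of other cell types moved in part along the same libraries. The summed CPM of 9 mesothelial markers was 472, 275 and 405 in KO, against 370, 522 and 305 in WT, lowest in KO 2 and highest in WT 2 like the members. The 10 acinar markers summed to 217775, 271648 and 243642 CPM in KO, against 213725, 169860 and 245259 CPM in WT. That sum was highest in KO 2 and lowest in WT 2. By gene, KO 2 was highest for 6 of the 10 and WT 3 for 4, while WT 2 was lowest for 6 and KO 3 for 4. The 8 erythroid markers found summed to 1707, 4802 and 1797 CPM in KO, against 5947, 2704 and 2839 CPM in WT, high in KO 2 and in WT 1. Without WT 1 and KO 2 together, 32 members had a lower mean in KO and 2 were lower at an unadjusted p under 0.05, where leaving out KO 2 alone gave 28 and 3. The part of these cell types in the members' values was not tested.

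The 12 cell cycle genes summed to 719, 469 and 282 CPM in KO, against 961, 1029 and 1182 CPM in WT. All 12 lay below WT in every KO library, where 10.3% of all tested genes did so. Their median log2 fold change was -1.17, and edgeR called 0 of them, as it called 0 of all 15805 genes. Here KO 3 was lowest, unlike in the collagens, and the part of cell division in the members' values was not tested. The 10 endothelial markers summed to 805, 837 and 851 CPM in KO, against 805, 709 and 706 CPM in WT. The 9 skeletal muscle markers summed to 2.86 to 4.88 CPM in KO and 4.70 to 11.9 CPM in WT, with Tnnt3, Tnnc2, Tnni2 and Ckm under 1 CPM in every library. Of 9 cartilage and bone markers, Acan, Col2a1, Matn1, Sp7 and Bglap were under 1 CPM in every library.

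Further genes of the same pathways were counted list by list, and 0 genes in these lists were called by edgeR. In the basement membrane list of laminins, nidogens and related genes, 12 of 15 had a higher mean in KO, with a median log2 fold change of 0.17. Lama2, the laminin chain of muscle and mesenchymal basement membranes, had 83.6, 109 and 91.2 CPM in KO, against 52.5, 63.6 and 58.1 CPM in WT. The KO libraries lay well above the WT libraries (log2 fold change 0.70 ± 0.12, edgeR adjusted p = 0.205), and KO 2 was the highest library here. Lama3 followed at 14.7 ± 1.20 CPM in KO pancreas and 11.4 ± 0.581 CPM in WT pancreas (edgeR adjusted p = 0.284).

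Of the 4 PDGF ligand genes, all had a higher mean in KO. For Pdgfb, Pdgfa and Pdgfd the groups overlapped, with log2 fold changes of 0.02, 0.13 and 0.20. Pdgfc, a ligand of PDGFRA, had 22.8, 19.0 and 27.8 CPM in KO, against 12.3, 16.7 and 15.9 CPM in WT, without overlap (log2 fold change 0.63 ± 0.18, edgeR adjusted p = 0.241). In the list of TGF-beta ligands, latency proteins and matrix targets, 15 of 20 had a higher mean, with a median of 0.10, and the co-receptor gene Tgfbr3 stood at 87.6 ± 25.4 CPM in KO pancreas and 60.8 ± 10.5 CPM in WT pancreas. In the list of collagen folding and processing genes, 19 of 27 had a lower mean, with a median of -0.10, P4ha3 being the one with the smallest p (5.47 ± 1.53 CPM in KO pancreas and 7.68 ± 0.891 CPM in WT pancreas).

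Of 26 collagens outside the 45, 23 were tested and 14 had a higher mean in KO, with a median of 0.11. The summed CPM of the 26 was lower in mean, at 656 ± 55.1 in KO and 716 ± 28.3 in WT. Of those with the most reads, Col5a3, Col18a1 and Col16a1 had log2 fold changes of -0.36, -0.27 and -0.32, and Col27a1 0.41. Col17a1, a transmembrane collagen of epithelial cells, stood at 2.27 ± 0.455 CPM in KO pancreas and 1.13 ± 0.0371 CPM in WT pancreas, without overlap (edgeR adjusted p = 0.24). Among 25 matrix receptors, 14 had a higher mean, with a median of 0.02, and the heparan sulphate proteoglycan gene Sdc1 stood at 36.3 ± 2.77 CPM in KO pancreas and 46.6 ± 4.80 CPM in WT pancreas, without overlap (edgeR adjusted p = 0.258).

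Among 32 tested factors of pancreatic mesenchyme, 18 had a higher mean, with a median of 0.03. The ligand gene Wnt2 had 1.70, 0.864 and 0.855 CPM in KO, against 1.85, 2.57 and 2.52 CPM in WT (edgeR adjusted p = 0.291). Of 16 further smooth muscle genes tested, 10 had a lower mean, with a median of -0.07. Mrtfb, a coactivator of serum response factor, stood at 60.9 ± 5.80 CPM in KO pancreas and 48.2 ± 3.97 CPM in WT pancreas, without overlap (edgeR adjusted p = 0.268). The 10 further pericyte genes split evenly, 5 lower and 5 higher, with a median of 0.0.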

How the data were processed

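Bulk RNA-seq libraries of whole newborn pancreas (3 KO and 3 WT) were grouped by the genotype label. Per the submitters' processing notes, reads were processed with bcl2fastq, Salmon 0.13.1 and DESeq2 1.24.0 on the build mm10; no source used here names the transcript set that Salmon read. The authors deposited, per library, estimated counts and TPM for 116248 transcripts, and a series table of 17324 genes whose values are a scaled signal (0.566 to 0.791% of them whole to the last digit), used in 1 alternative.

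Of the transcripts, 115995 matched GENCODE M21 (GRCm38) by versioned identifier, and the rest held 0.0341 to 0.0458% of reads. Estimated counts were summed per gene (Python 3.11.15, pandas 2.3.3), then rounded to integers, and the deposited TPM values were summed per gene to compare levels between genes. Every pair of libraries differed beyond sampling noise (chi-square per degree of freedom 22.5 to 85.8). Genes were tested in R 4.3.3 by the quasi-likelihood method of edgeR 4.0.16, with TMM factors (0.92 to 1.09) and filterByExpr, adjusted by Benjamini-Hochberg over 15805 genes; a fold change is KO over WT with its standard error, the fold change over the square root of F. Alternatives used DESeq2 1.42.0, limma 3.58.1 (on log2(value + 1) for the authors' table), other scalings and filters, and libraries left out. The edgeR, DESeq2 and limma steps were tested on simulated data with planted changes.

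The members and all lists were chosen with earlier results of these data known. Values per library are given for the members with the smallest p in each group, those without overlap between groups and the most abundant of each group. Up to 2 genes of each further list are named. Overlap on TPM or on size-factor-scaled counts, and the ratios between genes, were chosen after seeing the data. Precision is limited by 3 mice per group.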

Additional observations from a re-analysis of the deposited data

How the results depend on the processing

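Leaving out 1 library at a time moved the members called by edgeR between 0 and 1 higher and between 0 and 1 lower, both calls coming without KO 1 (Pdgfra and Serpinh1). It moved the members at an unadjusted p under 0.05 between 1 and 4 higher and between 1 and 13 lower, and those with a lower mean in KO between 28 and 38. By adjusted p, edgeR called 87 of all genes higher and 275 lower without KO 1, and 0 without any other single library. For the unadjusted p and the lower mean, the shares of all genes were not counted in these fits. DESeq2 called 1 member higher and 1 lower. Without WT 1 and KO 2 together, 2 members were lower at an unadjusted p under 0.05. On the deposited TPM values, 1 member lay below WT in every KO library, and the share of all genes was not counted there. The contractile median was -0.04 with the length offset and -0.04 on the authors' scaled table. The log2 fold change of Tagln turned to 0.08 with the length offset and 0.10 on the authors' table, and that of Vim (-0.09 to 0.19 with 1 library left out) to -0.09 without KO 3 and 0.00 without WT 3. Without 7mer-A1 sites, 14.1% of all tested genes held a 5p match and 18.7% a 3p match, because fewer forms were counted. For the other changes the cause was not tested. Of 256 alternative values for the 16 members given by library, 4 turned sign and 4 passed the threshold. Other scalings, filters and limma-voom gave 0 members called by adjusted p.

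No paired analysis was possible because the replicate numbers follow sample order and pair no mice. Depth was between 20565387 and 23028718 estimated reads, and the spread between 3 mice per group limits what can be called.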
